A study of Mus musculus with 14 samples.

Results

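The spliceosome and splicing factor genes on the array were described in epididymal fat of 3-week-old mice from 3 feeding groups. The genes were those whose symbol names an SF3A or SF3B subunit (Sf3a, Sf3b), an snRNP protein (Snrp), a serine- and arginine-rich protein (Srsf), an LSm protein (Lsm) or a pre-mRNA processing factor (Prpf). The rule found 46 of the 12393 genes on the array, each read from the probe set of highest mean level. Of these, 41 were among the 7436 genes bright enough to be tested, and Lsm2, Lsm14a, Prpf3, Prpf31 and Snrpn were below that level. The 41 comprise 9 SF3A and SF3B subunits, 4 Sm core proteins, 3 proteins of the U1 or U2 snRNP, 9 SR proteins, 5 proteins of the LSm rings, 3 other LSm-domain proteins and 8 PRPF factors. Probe sets that name several genes were not used, so Snrpa, Snrpd1, Snrpd2 and Lsm5 were not analysed here.

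The spliceosome removes introns from pre-mRNA and joins the exons. It is built from small nuclear ribonucleoproteins (snRNPs), in which a ring of Sm or LSm proteins encircles a short RNA, and SR proteins bound to exons help it to choose its sites. In fat, alternative splicing is known to change with adipocyte differentiation, and Srsf10 is known there for its control of lipin 1 splicing.

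Affymetrix arrays measured total RNA of 14 mice of the outbred ICR strain, all labelled male. Dams of the CC mice (n = 5) had free access to chow in pregnancy and while nursing. The UC mice (n = 5) were exposed in utero to a cut of 50% in maternal food and suckled dams with free access to chow, and the UU mice (n = 4) had that cut both in utero and during suckling. The dam's food is the manipulated variable, labels name no litters, and each array is taken as its own animal in the p-values. The comparison of UC with CC asks about restriction before birth followed by free feeding, that of UU with CC about restriction throughout, and that of UC with UU about feeding in the suckling period. The 3 comparisons share their arrays and are not independent of each other. Signals are linear array units after the authors scaled each array to the same trimmed mean, and a log2 difference refers to log2(signal + 32). The number of arrays limits the precision.

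Marker genes of other tissue differed between the arrays. The adipocyte hormone gene Adipoq had signals of 25263 to 88737 over the 14 samples, so fat was present in all of them. The summed signal of 9 epididymal epithelium markers was low, at 1410.2 to 3414, in replicates 2 and 4 of CC and 2 and 5 of UC. It was 31790.2 to 137924 in the remaining 10 samples, among them every UU mouse. In CC replicate 2 and UC replicate 5, Xist was at 3981 and 5642, against at most 1324 elsewhere, and Y-linked Eif2s3y at 58.6 and 7.9, against at least 1235, so these 2 libraries did not match their label as male. The log2 ratio of 3' to 5' control probe sets of Gapdh and Actb, a measure of RNA integrity, was 0.71 ± 0.33 (SD, n = 5) in CC, 1.22 ± 0.36 (SD, n = 5) in UC and 1.15 ± 0.64 (SD, n = 4) in UU. Among the tested markers, 15 of 15 general epithelial genes were higher in UU than in CC (median log2 difference 0.97), 10 of 11 macrophage genes were lower (-1.02) and 7 of 8 adipocyte genes were lower (-0.59). In UC minus UU the epithelial genes were lower in 15 of 15 (-1.43), the macrophage genes higher in 10 of 11 (1.04) and the adipocyte genes higher in 8 of 8 (0.63). In UC minus CC the epithelial genes were lower in 15 of 15 (-0.35), the macrophage genes higher in 5 of 11 (-0.11) and the adipocyte genes higher in 5 of 8 (0.09). Of 11 liver plasma protein genes on the array, 3 were bright enough to be tested by their mean over all arrays, UC replicate 2 included. Those 3 were higher in UC and in UU than in CC (2.01 and 0.76). The summed signal of the liver markers was 82656 in UC replicate 2 against at most 14089.6 elsewhere. The summed signal of fast skeletal muscle markers was 23938 and 22431 in CC replicates 2 and 5 and at most 4077 elsewhere. The part of these tissues in the differences of the splicing genes was not tested. In whole tissue, fewer cells of a type and less RNA per cell cannot be told apart.

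Start site windows are shown for 4 of the 7 genes in which the UU signals all lay above the CC signals. The choice was made after their values were seen. The windows of the others, Lsm14b, Prpf38b and Prpf39, are not shown. CCGGAAG is absent from them, as it is from the shown windows of Srsf10 and Snrpd3. CCAAT occurs in the windows of Lsm14b and Prpf38b. Each window holds 250 bases before and 50 after the start in RefSeq's table of GRCm38.p6. Capitals mark CCGGAAG, the core of ETS family sites, and CCAAT, the CCAAT box, on either strand. CCGGAAG matches on opposite strands overlap in Snrpe.
Sf3a2, chr10:80798485-80798784, + strand: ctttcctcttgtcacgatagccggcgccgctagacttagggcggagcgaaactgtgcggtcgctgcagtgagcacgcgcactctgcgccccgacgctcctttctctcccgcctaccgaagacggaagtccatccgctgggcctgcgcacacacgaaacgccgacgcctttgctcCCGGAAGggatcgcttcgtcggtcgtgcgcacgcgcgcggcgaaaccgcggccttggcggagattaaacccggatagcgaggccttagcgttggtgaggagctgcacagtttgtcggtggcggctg
Srsf10, chr4:135855821-135856120, + strand: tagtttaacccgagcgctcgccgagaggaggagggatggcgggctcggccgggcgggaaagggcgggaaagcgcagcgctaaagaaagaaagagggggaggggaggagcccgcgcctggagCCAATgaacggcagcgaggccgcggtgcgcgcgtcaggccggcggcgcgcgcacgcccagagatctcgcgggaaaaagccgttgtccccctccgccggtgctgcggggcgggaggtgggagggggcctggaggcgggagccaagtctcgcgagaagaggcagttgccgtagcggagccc
Snrpd3, chr10:75517792-75518091, + strand: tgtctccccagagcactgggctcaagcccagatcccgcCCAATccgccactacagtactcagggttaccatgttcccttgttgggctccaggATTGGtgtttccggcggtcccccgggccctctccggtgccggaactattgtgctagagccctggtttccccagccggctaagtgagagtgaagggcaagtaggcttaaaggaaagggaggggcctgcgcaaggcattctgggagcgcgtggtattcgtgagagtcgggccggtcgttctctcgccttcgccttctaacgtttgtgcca
Snrpe, chr1:133610231-133610530, - strand: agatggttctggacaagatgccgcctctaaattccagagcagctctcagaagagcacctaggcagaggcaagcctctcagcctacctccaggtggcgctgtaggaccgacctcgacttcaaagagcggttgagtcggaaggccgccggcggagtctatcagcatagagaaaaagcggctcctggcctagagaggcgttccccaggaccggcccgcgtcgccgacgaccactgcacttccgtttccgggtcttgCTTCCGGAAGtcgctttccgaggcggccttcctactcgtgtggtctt

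A window was found for 40 of the 46 genes, 35 of them tested. CCGGAAG occurred in 16 of the 40 (40%), against 9.12% of all 27025 genes with a window, and in 16 of the 35 tested (45.7%), against 19.1% of the 6040 tested genes with a window. The GC box GGGCGG occurred in 26 of the 35 (74.3%), against 66.8% of tested genes, and CCAAT in 15 (42.9%), against 38.1%. TATAAA, the TATA box, was in 3 of the 35 (8.57%) and in 7.28% of tested genes. The YY1 motif AAGATGGC was in 3 of the 35 (8.57%, against 5.2%), the cAMP response element TGACGTCA in 1 (2.86%, against 3.21%) and the palindromic NRF1 motif in 0 (against 2.19%). Both strands were searched, and a match is a description of the letters, not of binding. Among tested genes, the median log2 difference of UU from CC was 0.20 over the 16 splicing genes with CCGGAAG and 0.24 over the 19 with a window and without it.

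No splicing gene passed an adjusted p of 0.05 in any of the 3 comparisons. Of all 7436 genes, 0% passed between UC and CC, 0% between UU and CC and 0.807% between UC and UU. The smallest adjusted p of a splicing gene was 0.502 between UC and CC, 0.0984 between UU and CC and 0.102 between UC and UU (limma, Benjamini-Hochberg over all genes tested). In the descriptions that follow, higher and lower therefore refer to measured means and to samples, not to genes that passed the test.

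In UU mice, which were restricted before and after birth, the splicing genes lay mostly above the CC level. Of the 41 genes, 32 (78.0%) had a log2 difference above 0, against 55.4% of all genes tested with 44.6% below 0, and their median was 0.18 against 0.05. Unadjusted p was under 0.05 for 9 genes, all higher in UU (22.0% of 41, against 8.63% of all genes), and for 0 lower genes (7.75% of all genes). In 7 genes (17.1%, against 4.71% of all genes) every UU sample exceeded every CC sample: Sf3a2, Snrpd3, Snrpe, Srsf10, Lsm14b, Prpf38b and Prpf39. None lay wholly below, where 3.63% of all genes did.

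In UC mice, restricted before birth only, the genes were spread about the CC level. A log2 difference above 0 was found in 21 of 41 (51.2%, against 49.5% of all genes, with 50.5% of all genes below 0), with a median of 0.02 against -0.0032. Unadjusted p was under 0.05 for 4 higher genes (Sf3a2, Snrpc, Srsf10 and Lsm12, against 4.76% of all genes) and for 3 lower genes (Sf3b5, Srsf5 and Prpf38a, against 3.99%). Sf3a2 was the 1 gene whose UC and CC samples did not overlap, in the direction of higher UC (1.01% of all genes). None lay wholly lower in UC, where 0.78% of all genes did.

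Against UU, most splicing genes had the lower mean in UC. A log2 difference of UC minus UU above 0 was found in 8 of 41 genes (19.5%, against 43.3% of all genes), and the median was -0.22 against -0.06. Below 0 were 33 of 41 (80.5%), against 56.7% of all genes. Unadjusted p was under 0.05 for 8 genes lower in UC (19.5%, against 8.73% of all genes) and 1 higher, Lsm12 (9.17% of all genes). All UC samples lay below all UU samples for Prpf39 and Srsf10 (4.88% of 41, against 2.5% of all genes), and none lay wholly above, where 3.5% of all genes did. The plot of log2 differences by role shows all 41 genes.

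**Figure D1:**
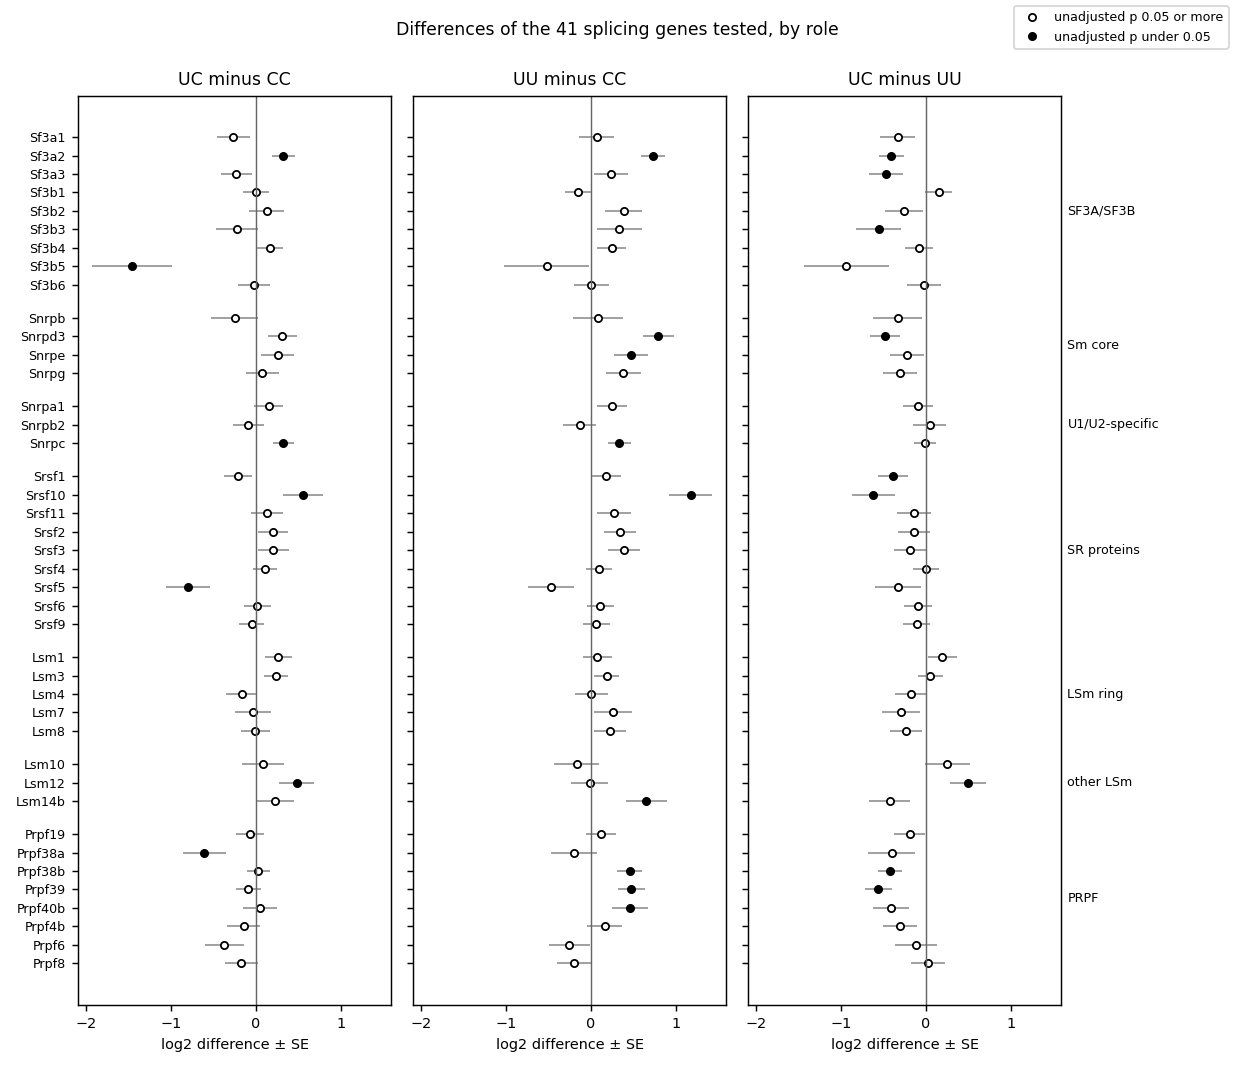
Log2 difference with its standard error (x axis) of each of the 41 splicing genes (y axis, grouped by role) in UC minus CC, UU minus CC and UC minus UU. Filled points have an unadjusted p under 0.05 and none passed adjustment. In UU minus CC 32 points lie right of 0, and in UC minus UU 33 lie left of it.

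The mean level of the 41 genes was compared between samples as a score, the mean log2 level minus the CC mean. It was 0.00 ± 0.12 (SD, n = 5) in CC, -0.02 ± 0.08 (SD, n = 5) in UC and 0.19 ± 0.13 (SD, n = 4) in UU, with UU samples from 0.05 to 0.35 and CC samples from -0.15 to 0.10. Over all genes tested, the same score ran from -0.07 to 0.04 in CC, -0.06 to 0.05 in UC and 0.01 to 0.06 in UU. The mean log2 levels of the 4 samples low in epididymal markers, 11.32 to 11.40, were the 4 lowest of the 14, against 11.41 to 11.82 in the other 10. The score over all genes was -0.067 and -0.0074 in CC replicates 2 and 4 and -0.064 and -0.028 in UC replicates 2 and 5. In UC replicate 4 it was -0.033. Since the UU group holds no sample low in epididymal markers, the splicing genes were also compared among the 10 others. There the UU minus CC median was 0.11 with 26 of 41 above 0 (all genes 0.03), and the UC minus UU median was -0.19 with 11 above 0 (all genes -0.04). In a fit that held the epididymal marker level, 31 of 41 genes lay above 0 in UU minus CC and 10 of 41 in UC minus UU. How far epididymal tissue contributes to the difference of the score was not tested. Setting the same median signal on every array moved all genes alike, to a UU minus CC median of 0.11 for the splicing genes (27 of 41 above 0) and of -0.03 for all genes. Leaving out UU replicate 1, which had the highest level, brought the median of the splicing genes to 0.13. Without the 2 libraries that did not match their label, 30 of 41 genes lay above 0 and the smallest adjusted p was 0.139.

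**Figure D2:**
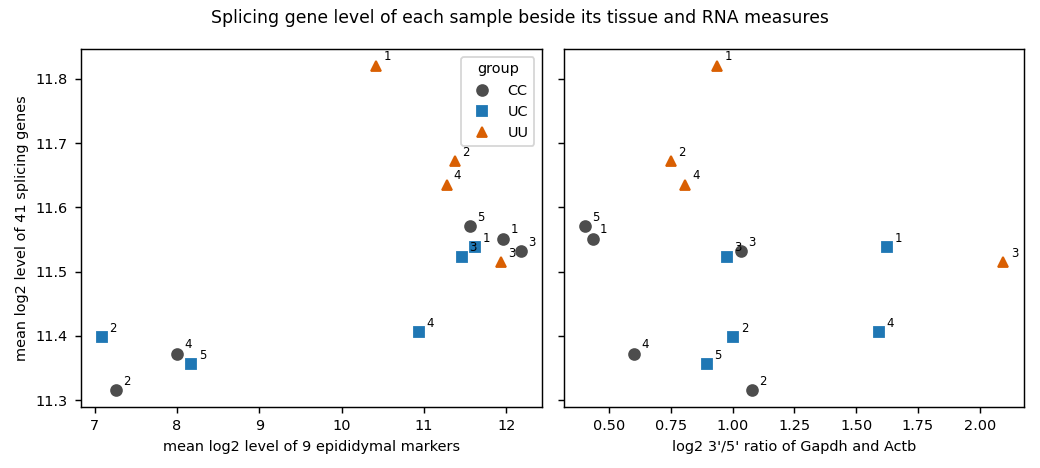
Mean log2 level of the 41 splicing genes (y axis) in each of 14 samples against the mean log2 level of 9 epididymal markers (left) and against the log2 3'/5' ratio of Gapdh and Actb (right). Symbols mark the group and numbers the replicate. The 4 samples low in epididymal markers have the 4 lowest levels, 11.32 to 11.40, and UU replicate 1 the highest, 11.82.

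By role, the Sm core had the highest median in UU minus CC, 0.43 with 4 of 4 genes above 0. The SF3A and SF3B subunits had 0.24 (7 of 9), the U1 and U2 proteins 0.24 (2 of 3), the SR proteins 0.18 (8 of 9), the LSm rings 0.18 (5 of 5), the PRPF factors 0.14 (5 of 8) and the other LSm-domain proteins -0.02 (1 of 3). This order depends on the probe set used. With the probe sets of a gene averaged, the UU minus CC median was 0.15 for the Sm core, 0.05 for the SF3 subunits, 0.10 for the U1 and U2 proteins, 0.10 for the SR proteins, 0.18 for the LSm rings and 0.17 for the PRPF factors. Read from the brightest probe sets, the Sm core was above its CC mean in each UU sample, by 0.60, 0.40, 0.29 and 0.44. In UC minus UU the medians were -0.33 for the SF3 subunits, -0.32 for the Sm core, -0.35 for the PRPF factors, -0.17 for the LSm rings, -0.14 for the SR proteins, -0.01 for the U1 and U2 proteins and 0.25 for the other LSm-domain proteins. The other LSm-domain proteins thus stood on the opposite side of 0 from the rest, on the values of 3 genes.

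**Figure D3:**
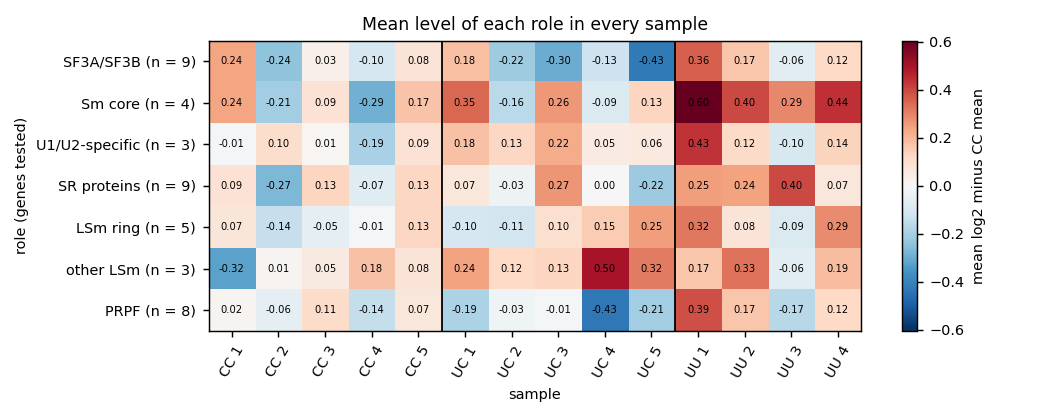
Mean log2 level of the genes of each role (rows, with the number tested) in each sample (columns), minus the role's CC mean, printed in each cell. The Sm core is at 0.29 to 0.60 in the 4 UU samples, and UU replicate 3 is below 0 in 5 of the 7 roles.

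The SF3A and SF3B complexes are parts of the U2 snRNP that hold it at the branch site of the intron. Sf3a2, the middle-sized SF3A subunit, had signals of 5096, 3930.2, 5231, 4047 and 4897 in CC replicates 1 to 5. UC samples gave 6920.0, 5963, 5315, 5322 and 5470.0 and UU samples 7480.1, 6787, 9122 and 7408. The CC samples were the lowest, below all UC and all UU samples, and UC overlapped UU in a single sample, replicate 1. Means were 4640 ± 608 in CC, 5798 ± 681 in UC and 7699 ± 998 in UU (SD), and the fitted fold of UU over CC was 1.66. The log2 differences were 0.73 ± 0.15 (SE; adjusted p = 0.0984) for UU minus CC, 0.32 ± 0.14 (adjusted p = 0.549) for UC minus CC and -0.41 ± 0.15 (adjusted p = 0.179) for UC minus UU. Of all 41 genes it had the smallest p in UU against CC, 0.000141 unadjusted.

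Sf3b1 encodes the large SF3B subunit that contacts the branch site. Its signals were 6956, 5969, 8212, 7017 and 6331 in CC, 8039.8, 6625, 8075, 6728 and 5197 in UC and 6456, 6546, 6632 and 5165 in UU. All UU samples lay inside or below the CC range, and the log2 difference of UU minus CC was -0.15 ± 0.16 (SE; adjusted p = 0.637), opposite in sign to that of Sf3a2. Sf3b5, a small SF3B subunit, was measured at 1403, 581.8, 818.5, 1472 and 1791 in CC and at 610.4, 315.4, 134.5, 557.4 and 571.0 in UC. The UU samples spanned both ranges, at 1681, 916.6, 260.2 and 851.8. Only CC replicate 2 lay within the UC range, and UC minus CC was -1.46 ± 0.47 (SE), the smallest p of that comparison, with an adjusted p of 0.502. Once the fit held the 3'/5' ratio as a term, the difference was -1.0. With its probe sets averaged it was -0.66 ± 0.36, since the dimmer one, below the level for testing, had 0.14. Of the other subunits, Sf3a3 and Sf3b3 were lower in UC than in UU by log2 differences of -0.47 ± 0.20 and -0.56 ± 0.26 (SE, unadjusted p = 0.0333 and 0.0499). On the brightest probe sets, the UU minus CC differences of Sf3a1, Sf3a3, Sf3b2, Sf3b3, Sf3b4 and Sf3b6 lay between 0.00 and 0.38. The tested dimmer probe sets had 0.09, -0.01 and -0.30 for Sf3b2, -0.11 and -0.20 for Sf3b6 and 0.23 for Sf3b4. With probe sets averaged, these genes lay between 0.04 (Sf3b2) and 0.33 (Sf3b3).

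Sm proteins form the ring that all spliceosomal snRNPs except U6 share. The Sm ring member Snrpd3 (SmD3) had CC signals of 846.1, 871.0, 944.7, 947.8 and 1042. UC signals were 1168, 871.1, 1352, 930.8 and 1623, and UU signals 1939.6, 1460.1, 1704 and 1468. The UU samples lay above all CC samples, while the UC samples reached from the CC level into the UU level. UU was at 1643 ± 228 against 930 ± 76.7 in CC (SD), a fitted 1.73-fold and a log2 difference of 0.79 ± 0.18 (SE; adjusted p = 0.108). UC minus UU was -0.48 ± 0.18 (adjusted p = 0.195).

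Snrpe (SmE) ranged from 5637 to 10392 in CC, from 7964 to 14185 in UC and from 10732 to 13265 in UU, and its log2 difference of UU minus CC was 0.47 ± 0.20 (SE; adjusted p = 0.259). Snrpg (SmG) followed at 0.38 ± 0.20, with UU at 10112 to 11689 against 5517 to 10646 in CC, while its dimmer probe set had -0.19 ± 0.25. Snrpb, which encodes SmB and SmB', had signals of 4253, 1778, 3353, 3127 and 3807 in CC, 2633, 2752, 3080.2, 1841 and 3086 in UC and 5119.9, 3318, 1751 and 4125 in UU. The UU samples held both the highest and the lowest of the 14 values, so this core gene showed no difference beyond its spread (UU minus CC 0.09 ± 0.29, SE).

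Snrpc, the U1-specific protein that stabilises pairing with the 5' splice site, was higher than CC in both restricted groups. Its CC signals were 4486, 3683, 4033, 3406 and 4023, its UC signals 5532, 4790.2, 4331, 5493 and 4447 and its UU signals 5297, 5097, 4419.8 and 4959. Of the restricted samples, all but UC replicates 3 and 5 and UU replicate 3 exceeded the highest CC sample. The log2 differences from CC were 0.32 ± 0.13 in UC (SE; adjusted p = 0.523) and 0.33 ± 0.13 in UU (adjusted p = 0.236), and UC minus UU was -0.01 ± 0.13. The U2 proteins Snrpa1 and Snrpb2 had UU minus CC differences of 0.24 ± 0.18 and -0.13 ± 0.19.

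Among the SR proteins, which bind exonic enhancers, Srsf10 differed most. This factor acts as a sequence-specific splicing activator and, when dephosphorylated, as a repressor. Signals were 2423, 1282, 2791, 2615 and 3281 in CC, 3560.1, 2279.9, 3588, 3889 and 4561 in UC and 4927, 5040.4, 7151 and 4693 in UU. All 4 UU samples exceeded all 10 others, and UC samples lay across and above the CC range. The means were 2479 ± 741 in CC and 5453 ± 1142 in UU (SD), which made UU 2.25-fold CC on the log2(signal + 32) scale, with a log2 difference of 1.17 ± 0.25 (SE; unadjusted p = 0.000287, adjusted p = 0.102). UC minus CC was 0.55 ± 0.24 (adjusted p = 0.554) and UC minus UU -0.62 ± 0.25 (adjusted p = 0.221). Among the 10 samples with epididymal marker signal, UU minus CC was 0.93.

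Srsf5 was the SR protein with the lowest level in UC relative to CC. CC signals were 12693, 8268, 10852, 13238 and 12719.6 and UC signals 6188, 5393, 11094, 4773 and 6755. UU signals were 13919.5, 7050.0, 5342 and 8678. In UC every sample but replicate 3 lay below the whole CC range, and UC minus CC was -0.80 ± 0.26 (SE; adjusted p = 0.502). The difference was -0.48 in a fit that held the 3'/5' ratio, and -0.80 among the 10 samples with epididymal marker signal.

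Srsf1, the prototype SR protein, had signals of 8648, 8101, 9095, 5693 and 6896 in CC, 5908, 8083, 7664, 6499.9 and 5076 in UC and 8135, 8069.5, 10131 and 8239.5 in UU. UC replicate 2 lay between UU samples and the other 4 UC samples lay below all of them, with UC minus UU at -0.39 ± 0.18 (SE; adjusted p = 0.257). Srsf3, the smallest SR protein, was measured at 7709, 5474, 8099.6, 5383 and 7677 in CC, 8171, 8075, 10169, 7656 and 5572 in UC and 8456, 10184, 10079 and 7089 in UU. Its groups overlapped, and UU minus CC was 0.39 ± 0.19 (SE). Read from the brightest probe sets, the UU minus CC differences of Srsf2, Srsf4, Srsf6, Srsf9 and Srsf11 lay between 0.06 and 0.34. On that reading, Srsf5 was the 1 of 9 SR proteins with a lower mean log2 level in UU. The dimmer probe sets of Srsf2 had -0.38, -0.26 and -0.34, the last below the level for testing. With probe sets averaged, Srsf2 had -0.16 ± 0.14 (SE), and 7 of the 9 SR proteins lay above 0.

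LSm proteins form the ring of U6 snRNA and a related ring that acts in mRNA decay. Lsm8, which is found in the nuclear U6 ring, had signals of 2725, 2088, 2716, 2403 and 2819 in CC, 2326, 2043, 3520.3, 2145 and 2837 in UC and 3799, 2568, 2417 and 3295 in UU. The groups overlapped, and UU minus CC was 0.23 ± 0.19 (SE; adjusted p = 0.545). Lsm1, the counterpart of the cytoplasmic decay ring, and Lsm3, Lsm4 and Lsm7, shared by both rings, had UU minus CC differences from 0.01 to 0.26.

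Lsm12 lies outside these rings and was the 1 gene with unadjusted p under 0.05 in favour of UC over UU. Signals were 619.0, 1311, 1420.4, 835.1 and 1092 in CC, 1175, 1448, 1347, 1556 and 1624 in UC and 932.1, 948.0, 1241 and 912.4 in UU. UC replicate 1 was the 1 UC sample inside the UU range. On the log2 scale UC exceeded CC by 0.48 ± 0.20 (SE; adjusted p = 0.549) and UU by 0.49 ± 0.22 (adjusted p = 0.248), and UU and CC differed by -0.02 ± 0.22. Lsm14b, a paralogue of the P-body protein Lsm14a, was at 565.9 to 920.0 in CC, 575.7 to 1567 in UC and 1104 to 1404 in UU. The UU minus CC difference was 0.65 ± 0.24 (SE; adjusted p = 0.208). Lsm10, a component of the U7 snRNP of histone mRNA processing, had -0.17 ± 0.26.

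The PRPF factors act around the U4/U6.U5 tri-snRNP and in assembly of the active spliceosome. Prpf39, a U1-associated factor, had the smallest p of UC against UU. It was measured at 1593, 1961, 1644, 1242 and 1240.4 in CC, 1264, 1406, 1764, 1463 and 1253 in UC and 2119, 2120.1, 2237 and 1969 in UU. The UU samples lay within a narrow band above all 10 others, the lowest of them close to the highest CC sample. UC minus UU was -0.56 ± 0.16 (SE; adjusted p = 0.102) and UU minus CC 0.47 ± 0.16 (adjusted p = 0.177), while UC and CC differed by -0.09 ± 0.15.

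Prpf38b and Prpf38a are related to a yeast tri-snRNP protein needed for spliceosome activation. For Prpf38b the signals were 1843, 2369.8, 2224, 2022 and 2010.0 in CC, 1861, 2231, 2008, 1883 and 2775 in UC and 2582, 2801, 3042 and 3079 in UU. UU exceeded every CC sample, and UC replicate 5 alone reached into the UU range. UU minus CC was 0.45 ± 0.14 (SE; adjusted p = 0.166) and UC minus UU -0.43 ± 0.14 (adjusted p = 0.159). Prpf38a had signals of 1064, 1066, 1337, 1002 and 1401 in CC, 658.2, 977.1, 1130.1, 438.9 and 752.0 in UC and 1609, 1012, 636.5 and 987.7 in UU. All UC samples but replicate 3 were below the CC range, and UC minus CC was -0.61 ± 0.26 (SE; adjusted p = 0.549). The difference was -0.30 in a fit that held the 3'/5' ratio and -0.84 among the 10 samples with epididymal marker signal.

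Prpf8, the large U5 protein at the catalytic core, had signals of 4176, 2482, 3919, 4039 and 4138 in CC, 3659, 3524, 3519, 2542 and 3239.9 in UC and 4411, 3162, 2312 and 3292 in UU. Prpf19, the ubiquitin ligase of the complex that bears its name, was at 2778, 2209, 2735, 2699 and 3901 in CC, 2309.9, 2897, 2748, 2617 and 2854 in UC and 3901, 3241, 2248 and 3097 in UU. Prpf4b, a kinase of the spliceosome, was at 2488, 4234, 3321, 2409 and 2588 in CC, 2676, 3426, 2591, 2663 and 2074 in UC and 3642, 3306, 4090.3 and 2359.6 in UU. The groups overlapped in all 3 of these genes, with UU minus CC at -0.20 ± 0.20, 0.12 ± 0.18 and 0.16 ± 0.20 (SE). Prpf40b, a U1-associated factor, had 0.46 ± 0.21 (unadjusted p = 0.0480), and Prpf6, a tri-snRNP bridging protein, had -0.25 ± 0.25. The other tested probe set of Prpf6 had 0.36 ± 0.19, and the average over its probe sets was 0.07.

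**Figure D4:**
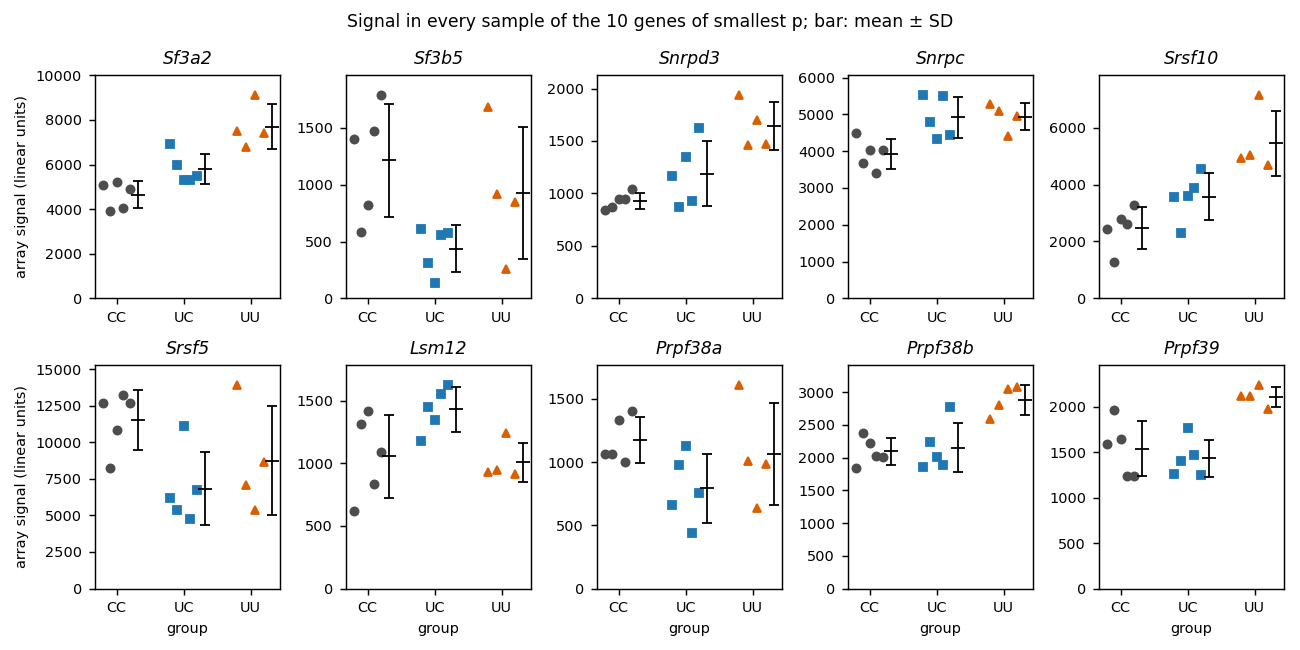
Array signal (y axis, linear units from 0) of the 10 splicing genes that were among the 5 of smallest p in any of the 3 comparisons, in each CC, UC and UU sample (points, x axis), with the group mean ± SD beside them. For Srsf10 and Prpf39 the 4 UU points lie above all 10 others, and for Sf3b5 the UC points reach no higher than 610.4.

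For 24 of the 46 genes the array carries further probe sets. The 40 of these that were bright enough were tested on their own among 10911 probe sets. Averages over the probe sets of a gene also include those below that level. In UU minus CC, 24 of 40 dimmer probe sets lay above 0 (median 0.12), and 26 had the sign of the brightest probe set of their gene. In UC minus CC 12 of 40 lay above 0 and 21 shared the sign, and in UC minus UU 3 of 40 lay above 0 and 38 shared the sign. The 3 comparisons were not tested against each other in this respect. Above 0 were 55.4% of all genes tested in UU minus CC, 49.5% in UC minus CC and 43.3% in UC minus UU. Those shares are of brightest probe sets, and the shares over all 10911 probe sets are not given here. Of the genes with the smallest p, several had dimmer probe sets with small differences. The 3 others of Srsf10 had UU minus CC differences of 0.32, 0.24 and -0.04, that of Sf3a2 had 0.12, that of Prpf38b -0.01 and the tested one of Snrpd3 0.02. For Prpf39 the tested dimmer probe set had 0.31. With the probe sets of a gene averaged, UU minus CC was 0.42 for Srsf10, 0.43 for Sf3a2, 0.22 for Prpf38b, 0.20 for Snrpd3 and 0.09 for Snrpg. In UC minus CC the dimmer probe sets of Srsf10 had -0.38, -0.15 and -0.01, and the average over its probe sets was 0.003 against 0.55 for the brightest. Averaged values in UC minus CC were 0.19 for Sf3a2 and 0.03 for Snrpd3. All 5 dimmer probe sets of Srsf3 lay above 0, from 0.22 to 0.77, with unadjusted p of 0.0045 for the highest. None of the 81 probe sets of splicing genes passed adjustment in the fit of every probe set, whose smallest adjusted p was 0.478 between UC and CC, 0.0861 between UU and CC and 0.121 between UC and UU.

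**Figure D5:**
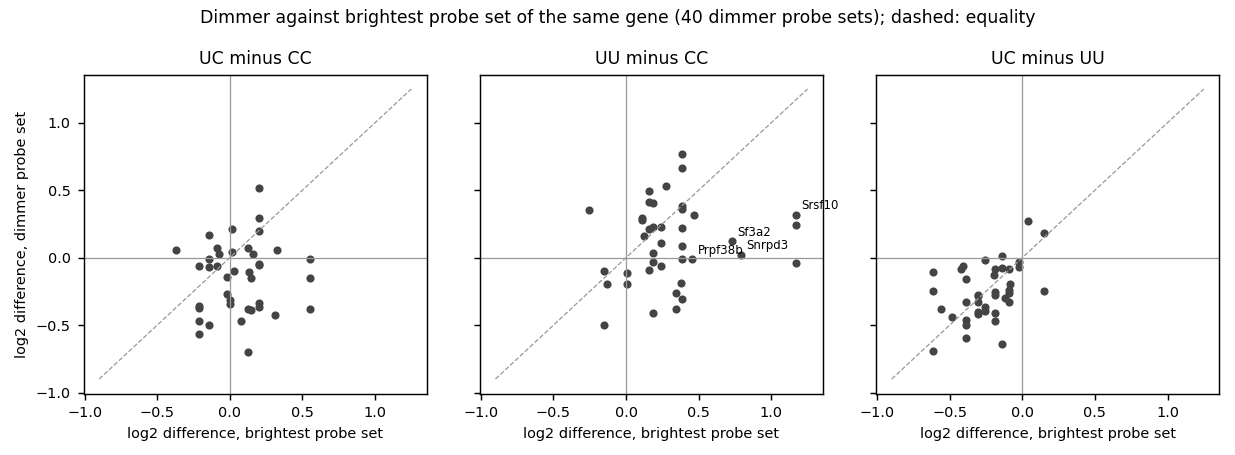
Log2 difference of each of 40 dimmer probe sets (y axis) against that of the brightest probe set of the same gene (x axis) in the 3 comparisons, with the line of equality dashed. In UC minus UU 3 of 40 points lie above 0 on the y axis, and in UU minus CC the labelled points of Srsf10, Sf3a2, Snrpd3 and Prpf38b lie far below the line.

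Other genes of the pathway were followed in 6 lists, and none of their genes passed an adjusted p of 0.05 in the 3 comparisons. In UU minus CC, 24 of 37 other spliceosome proteins lay above 0 (median 0.13), as did 16 of 24 hnRNP proteins (0.19), which bind nascent RNA, and 17 of 22 SR protein kinases and SR-related factors (0.17). The exon junction and export list had 9 of 12 above 0 (0.13), snRNP assembly 4 of 7 (0.02) and tissue-regulated splicing regulators 9 of 14 (0.22). Those medians lay on both sides of the 0.18 of the 41 genes and, but for snRNP assembly, above the 0.05 of all genes. In UC minus UU the SR-related list had 3 of 22 genes above 0, a median of -0.37 (all genes -0.06) and 8 genes with unadjusted p under 0.05, all lower in UC, where 8.73% of all genes were.

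Within these lists Srrm2, a scaffold of nuclear speckles, had a log2 difference of UC minus UU of -0.73 ± 0.18 (SE; adjusted p = 0.0731). Luc7l3, a U1-associated factor, had -0.96 ± 0.27 (adjusted p = 0.0999) there and 0.79 ± 0.27 (adjusted p = 0.18) in UU minus CC. Rnps1, a component of the exon junction, was at 0.54 ± 0.16 (adjusted p = 0.158) in UU minus CC, and Eftud2, the GTPase of the U5 snRNP, at 0.87 ± 0.27 (adjusted p = 0.159). Lower in UU than in CC were the mean levels of Hnrnpab, at -0.84 ± 0.30 (adjusted p = 0.188), and of Rbm17, a factor of early spliceosomes, at -0.52 ± 0.21 (adjusted p = 0.233). Of the hnRNP list, Hnrnpl had -1.07 ± 0.33 (adjusted p = 0.125) in UC minus UU. In UC minus CC, Luc7l2 had -0.76 ± 0.20 (adjusted p = 0.439), Ptbp1, the polypyrimidine tract repressor, -0.71 ± 0.26 (adjusted p = 0.518), and Mbnl1 and Qk, regulators of tissue-specific exons, 0.57 ± 0.21 and 0.49 ± 0.18 (adjusted p = 0.518 each). The assembly factor Clns1a had 0.49 ± 0.16 in UU minus CC (adjusted p = 0.169).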

How the data were processed

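Affymetrix arrays were hybridised with total RNA of epididymal fat, 1 array for each of 14 mice, which the labels' group assignment places in CC (5), UC (5) and UU (4). The submitters' processing notes name GCOS 1.3 and MAS5 as the software. The deposited table holds linear intensity signals, down to 0.2, that the authors had scaled: with 2% trimmed from either end, the array means ran from 1499.86 to 1499.89. Detection calls and scan dates were not used here.

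Of 22690 probe sets, 20380 had 1 gene symbol in the platform annotation, 691 several, 1555 none, and 64 were controls. Symbols were updated through Entrez identifiers to RefSeq for 20351 and kept for 29. Each of 12393 genes was read from its brightest probe set. Values were taken as log2(signal + 32), and genes in the lowest 40% of mean levels were not tested. All 14 arrays entered one limma 3.58.1 model (R 4.3.3, mean-variance trend) with 3 two-sided contrasts. A gene was called where its p, adjusted after Benjamini and Hochberg over all genes tested, was under 0.05. Differences are given ± SE and signals ± SD. The genes, role lists and marker lists were chosen with earlier results of these data known. Values in every sample are given for the 5 genes of smallest p in each comparison and for fixed examples of each role that passed the filter, 18 genes in all, and for the other lists up to 2 genes of smallest p per comparison were named. Differences were recomputed under other scalings, filters, variance models, covariates and with arrays left out, and, after the data were seen, for every probe set on its own.

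On simulated arrays with 200 changed genes among 7436, the fit recovered 72.2% of 2-fold and 94.4% of 4-fold changes in UC against CC, 66% and 95.4% in UU against CC, and 72.8% and 95.8% in UC against UU. Of the calls there, 5.02%, 4.16% and 2.88% were false. Noise was drawn independently for each gene, so variation shared between genes, as from tissue or RNA, was not simulated. Changes below 2-fold were not simulated either, so these rates do not apply to smaller differences. Promoter windows came from RefSeq's GRCm38.p6. Figures were drawn with matplotlib 3.10.9.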

Additional observations from a re-analysis of the deposited data

Results flagged for a closer look

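In 5 of 54 groups of samples examined for the 18 genes with every value given, 1 sample stood apart from the rest of its group by Dixon's test, where chance gives about 1 in 20. Srsf10 was at 7151 in UU replicate 3, against 4693 to 5040.4 in the other UU samples. Srsf1 was at 10131 in the same sample, against 8070 to 8239, and Lsm12 at 1241, against 912.4 to 948.0. UU replicate 3 also had the highest 3'/5' ratio of the 14 arrays, 2.10 on the log2 scale, and the part of that ratio in these values was not tested. Prpf8 was at 2482 in CC replicate 2, a sample low in epididymal markers, against 3919 to 4176 in the other CC samples. Sf3b1 was at 5165 in UU replicate 4, against 6456 to 6632 in the other UU samples.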

How the results depend on the processing

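The count of splicing genes that passed was 0 in every alternative run but these. With the replicate number as a block it was 1 in UU against CC, Srsf10, at a log2 difference of 1.28 and an adjusted p of 0.0373, where 7 of all 7436 genes passed. At an adjusted p of 0.1 it was 1, Sf3a2, at 0.0984, among 11 of all genes. The numbers are not known to pair animals, and same-numbered samples correlated from -0.32 to 0.49 in their deviations from the group means. The median of UC minus UU was -0.0998 with 15 of 41 above 0 under median centring, where the median of all genes was 0.0653. That scaling moved the UC minus UU difference of all genes alike, by 0.12. Leaving out each array in turn gave 0 called genes in each comparison and medians from -0.0219 to 0.0857 in UC against CC, 0.1076 to 0.2321 in UU against CC and -0.2604 to -0.1431 in UC against UU. The UC minus CC median was opposite in sign in 6 of 26 alternatives, and the other medians in 0 of 25. The lowest UU minus CC median of these was 0.0961, with the probe sets of a gene averaged. There 33 of 41 genes lay above 0, and the median of all genes was 0.0194. The 9 genes higher in UU at an unadjusted p under 0.05 were 6 without CC replicate 4, without UU replicate 2, without the 4 samples low in epididymal markers and under median centring. Over all 7436 genes, 1218 had an unadjusted p under 0.05 in UU against CC, counting either direction. In those settings that count was 996, 1124, 973 and 1163 in turn. The 8 lower in UC than in UU were 2 under median centring, 4 in a fit that held the epididymal marker level and 5 without UC replicate 2, UC replicate 5 or UU replicate 1. For UC against UU the count over all genes, in either direction, was 1332. It was 1312 under median centring and 1068 with the epididymal marker level held. Without UC replicate 2, UC replicate 5 or UU replicate 1 it was 896, 1248 and 918. In UC against CC, the 4 higher and 3 lower genes were 3 and 0 in a fit that held the 3'/5' ratio. Over all genes, the count in UC against CC, in either direction, was 651 and became 356 in that fit. The smallest adjusted p of a splicing gene in that limma fit was 0.96. The number of arrays limits what these differences can show.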

Other observations

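Lsm14a, which fell below the level for testing, had signals of 5.4 to 21.3 in CC, 12.9 to 187.0 in UC and 8.0 to 23.2 in UU.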
